A study of Homo sapiens with 6 samples.

Results

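A set of 9 inflammatory genes was followed in SNU216, a human gastric cancer cell line, after knockdown of the oxytocin receptor gene OXTR. They are the chemokine genes CXCL1, CXCL2, CXCL3, CXCL8, CCL20 and CXCL16, the adhesion receptor gene ICAM1, and the NF-kB feedback genes NFKBIA and TNFAIP3. They were picked by gene symbol, and all 9 were found among the 17318 genes listed in each file. The siOXTR group held 3 libraries of SNU216 cells transfected for 48 h with siRNA against OXTR, and the siControl group held 3 libraries of SNU216 cells transfected for 48 h with control siRNA. Both groups are the same single cell line grown in serum, no oxytocin treatment is labelled, and neither the siRNA sequences nor their number were available to this work. Separate cultures are not stated for the replicates, so the p-values below reflect how far these libraries scatter, which may be technical.

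NF-kB is a family of transcription factors held in the cytoplasm by I-kappa-B proteins. Signals from tumour necrosis factor receptors, interleukin receptors and Toll-like receptors activate the I-kappa-B kinase complex, the inhibitor is degraded, and NF-kB enters the nucleus. It switches on chemokine genes and ICAM1, and it also switches on NFKBIA and TNFAIP3, whose products turn the pathway off again. In the stomach, epithelial cells secrete such chemokines during infection and inflammation, and they draw in neutrophils and lymphocytes.

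OXTR was at 4.76, 4.65 and 5.34 FPKM in siOXTR and at 39.37, 38.87 and 39.02 FPKM in siControl, so the target was low in each library labelled for its knockdown. FPKM (fragments per kilobase of transcript, scaled by library size) is the unit of the deposited files, and it allows levels of different genes to be compared per length. FPKM totals ranged from 446246 to 459595 in siOXTR and from 417829 to 434167 in siControl, and sequencing depth is unknown. The epithelial keratin genes KRT8, KRT18 and KRT19 stood at 1998.92 FPKM or more in siOXTR and at 1494.86 FPKM or more in siControl, whereas EPCAM, CDH1 and CLDN4, which encode epithelial surface and junction proteins, fell (adjusted p = 5.53e-08, 1.52e-10 and 3.74e-05, limma). Of these 6 markers 1 was called higher and 3 lower as deposited, against 42.2% and 17.6% of all tested genes. After TMM scaling 0 were higher and 3 lower, against 19.3% and 24.5%. KRT19 was the 1 higher as deposited, by 0.27 on the log2 scale (adjusted p = 0.0110, limma), a call lost after TMM scaling (0.14, adjusted p = 0.170). CDH1, for example, was at 19.80, 19.93 and 20.27 FPKM in siOXTR and at 79.70, 75.21 and 73.32 FPKM in siControl. Whether this bears on the results below was not tested. Of the leukocyte and macrophage markers in the files, 6 of 7 were under 2 FPKM in every library, and their summed level was 9.20 to 10.4 FPKM in siOXTR and 9.51 to 11.3 FPKM in siControl, most of it from CD68, a lysosomal protein gene. All 3 endothelial and all 5 fibroblast markers in the files were under 2 FPKM in every library. Summed, the fibroblast markers were at 0.610 to 0.810 FPKM in siOXTR and 1.62 to 2.02 FPKM in siControl, and the endothelial markers at 0.390 to 0.620 and 0.590 to 0.960 FPKM in siOXTR and siControl. In such bulk samples, fewer cells that express a gene and less RNA per cell cannot be told apart.

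The 9 genes split after OXTR knockdown. ICAM1 and CXCL16, which encode proteins that span the cell membrane, fell 2.66-fold and 1.54-fold. CXCL2 rose 1.65-fold, CXCL3 1.26-fold, NFKBIA 1.21-fold and TNFAIP3 1.16-fold as deposited, but the calls for CXCL3 and TNFAIP3 depended on how libraries were scaled. CXCL1, CXCL8 and CCL20 did not pass the test as deposited. Of the 9 genes, 4 were called higher and 2 lower (limma, Benjamini-Hochberg adjusted p under 0.05 over 11550 tested genes). All 9 passed the filter on low values, a 6-library mean of 1 FPKM or more. Among all tested genes 59.8% were called, 42.2% higher and 17.6% lower, so these counts are near the background. The groups did not overlap for the same 6 genes, against 64.4% of all tested genes. After TMM scaling (trimmed mean of M values, which sets the bulk of genes level between libraries), 2 of the 9 were higher and 3 lower, against 43.8% of all tested genes called, 19.3% higher and 24.5% lower. TMM scaling moved the log2 fold change of tested genes by a median of -0.119, so their median was 0.13 as deposited and 0.013 after it, and small rises should be read against that shift.

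**Figure D1:**
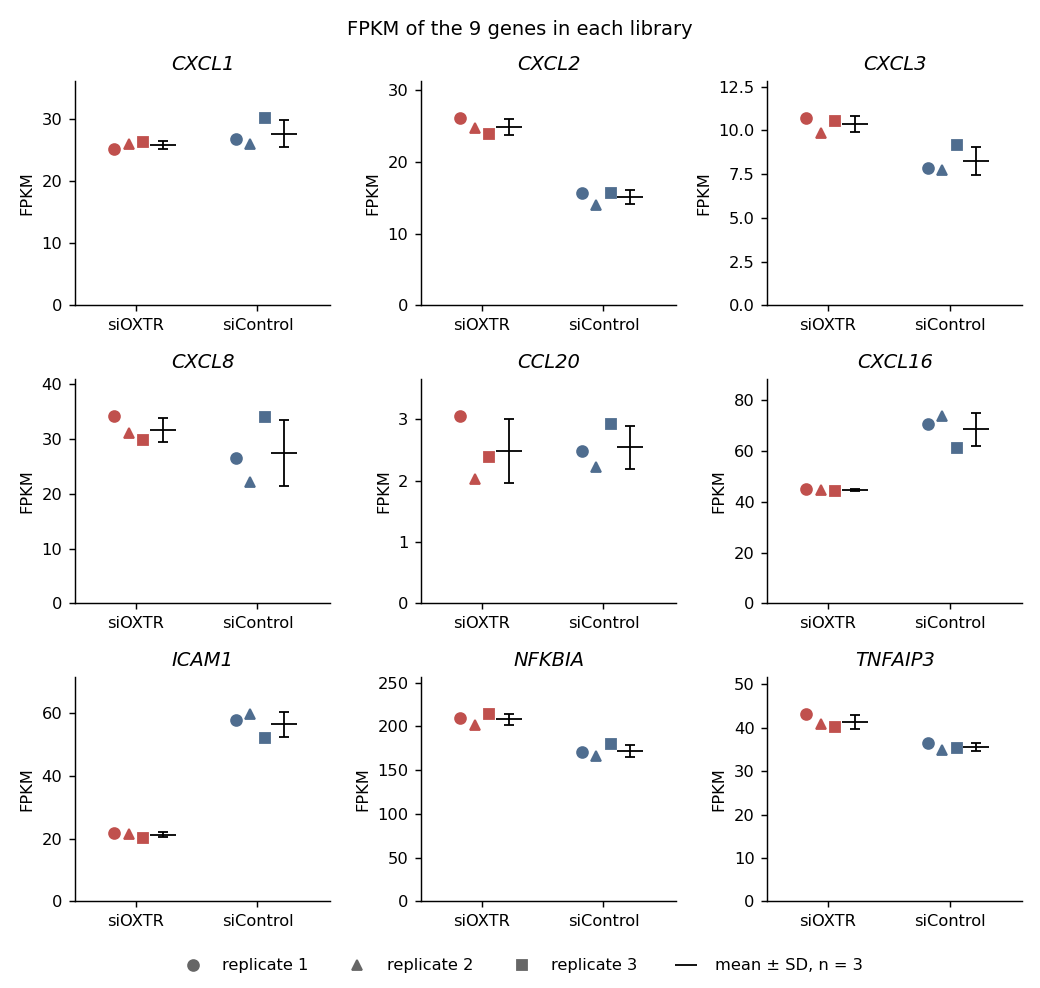
FPKM (vertical axes, each from 0) of the 9 genes in the 3 siOXTR libraries (red, left) and the 3 siControl libraries (blue, right), with symbols for the replicate numbers and black bars for the mean and SD. ICAM1 and CXCL16 are lower in every siOXTR library, CXCL2, CXCL3, NFKBIA and TNFAIP3 are higher in every siOXTR library, and the groups overlap for CXCL1, CXCL8 and CCL20.

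The neutrophil-attracting chemokine genes CXCL1, CXCL2, CXCL3 and CXCL8 lie in one cluster on chromosome 4 (GRCh38, GENCODE release 29). CXCL8, at 73740506 to 73743716, and CXCL1, at 73869393 to 73871242, are on the plus strand. CXCL3, at 74036589 to 74038807, and CXCL2, at 74097035 to 74099293, are on the minus strand, and the 4 genes span 359 kb. Their proteins bind the receptor CXCR2 on neutrophils. The other chemokine genes of this cluster in the files were nearly silent, since CXCL6, PPBP and CXCL5 were at 0.93 FPKM or less in each library. CXCL6 was at 0.14, 0.28 and 0.26 FPKM in siOXTR and at 0.62, 0.93 and 0.84 FPKM in siControl. That is lower in siOXTR, unlike CXCL2 and CXCL3, but under the filter on low values, so it was not tested.

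The bases just before the start of transcription are shown because they hold the letters that NF-kB is known to bind and because CXCL1, CXCL2 and CXCL3 share them. All are from RefSeq (GRCh38.p14), 5′ to 3′ on the gene's own strand, and end at the base before the start annotated by RefSeq, which can differ from that of GENCODE. Capitals mark GGAAATTCC, read on either strand. The windows are chr4:73869283-73869392 (plus strand) for CXCL1, chr4:74099196-74099305 (minus) for CXCL2, chr4:74038690-74038799 (minus) for CXCL3 and chr4:73740459-73740568 (plus) for CXCL8.
CXCL1: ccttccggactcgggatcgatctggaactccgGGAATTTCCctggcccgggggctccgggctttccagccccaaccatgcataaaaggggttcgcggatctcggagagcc
CXCL2: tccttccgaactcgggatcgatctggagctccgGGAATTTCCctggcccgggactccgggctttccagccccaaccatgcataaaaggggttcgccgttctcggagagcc
CXCL3: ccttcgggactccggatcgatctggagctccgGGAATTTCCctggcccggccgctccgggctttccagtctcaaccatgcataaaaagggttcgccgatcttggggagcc
CXCL8: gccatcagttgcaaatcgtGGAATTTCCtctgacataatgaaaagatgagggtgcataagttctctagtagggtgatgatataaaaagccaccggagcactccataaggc
The marked letters begin 78 bases before the start in CXCL1 and CXCL3, 77 bases before it in CXCL2 and 91 bases before it in CXCL8. Over 69 bases centred on the motif, CXCL1 and CXCL3 were identical at 62 positions, CXCL1 and CXCL2 at 56 and CXCL2 and CXCL3 at 52, counted without gaps. Of the 35116 windows of 250 bases before a start in the RefSeq table, 0.413% held GGAAATTCC on either strand. Of the 8 of the 9 genes found in that table, 6 held it. CXCL16 was not matched there. The motif was chosen after the values and these sequences had been seen, and a match describes these letters and not binding in these cells.

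CXCL2 rose most of the 9 genes. It was at 26.06, 24.71 and 23.92 FPKM in siOXTR and at 15.66, 14.01 and 15.70 FPKM in siControl. The lowest siOXTR library lay well above the highest siControl library. Its log2 fold change was 0.68 (SE 0.062, adjusted p = 2.06e-06, limma), and 0.528% of tested genes rose by as much or more. After TMM scaling it was 0.56 (adjusted p = 8.28e-06, limma).

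CXCL3 was at 10.68, 9.87 and 10.56 FPKM in siOXTR and at 7.84, 7.71 and 9.17 FPKM in siControl. The groups did not overlap, with siControl replicate 3 the nearest to the siOXTR libraries. The difference on the log2 scale was 0.30 (SE 0.072, adjusted p = 0.00350, limma), and 81.3% of tested genes had a lower one. After TMM scaling it was 0.19 and just missed the threshold (adjusted p = 0.0529, limma).

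CXCL1, a close relative of both, was not called as deposited. It was at 25.12, 25.94 and 26.34 FPKM in siOXTR and at 26.77, 26.00 and 30.06 FPKM in siControl. The groups overlapped slightly, and the highest value was that of siControl replicate 3. The log2 fold change was -0.092 (95% interval -0.23 to 0.04, adjusted p = 0.215, limma) as deposited. Relative to the bulk of genes CXCL1 was lower, at -0.22 after TMM scaling (adjusted p = 0.0146, limma).

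CXCL8, which encodes interleukin-8, was at 34.09, 31.14 and 29.82 FPKM in siOXTR and at 26.46, 22.06 and 33.97 FPKM in siControl. The siOXTR libraries lay close together and the siControl libraries were spread, with siControl replicate 3 nearly as high as the top siOXTR library. The coefficient of variation was 6.90% in siOXTR and 21.9% in siControl. Its log2 fold change was 0.22 (95% interval -0.09 to 0.53, adjusted p = 0.194, limma). Without siControl replicate 3 it was 0.38 and passed the threshold (adjusted p = 0.00254, limma), so that library decides the call. Without siControl replicate 2, the lowest library, it was 0.0747 (adjusted p = 0.528, limma), so its size depends on that library as well.

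Ratios of 2 genes within a library do not depend on how libraries are scaled. CXCL2 stood at 1.04, 0.953 and 0.908 times CXCL1 in siOXTR and at 0.585, 0.539 and 0.522 times CXCL1 in siControl. CXCL3 stood at 0.425, 0.380 and 0.401 times CXCL1 in siOXTR and at 0.293, 0.297 and 0.305 times CXCL1 in siControl. In both ratios the siOXTR libraries all lay above the siControl libraries (two-sided exact permutation p = 0.1 each, the smallest that 3 libraries against 3 allow, and 0.125 after Benjamini-Hochberg adjustment over 5 ratios). Summed over CXCL1, CXCL2, CXCL3 and CXCL8, the level was 92.8 ± 2.82 FPKM in siOXTR and 78.5 ± 9.68 FPKM in siControl (SD, n = 3 each). CXCL2 made up 26.8% of that sum in siOXTR and 19.4% in siControl on average, and CXCL1 27.8% in siOXTR and 35.3% in siControl.

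The transcripts of these chemokines carry AU-rich letters after the coding part, to which decay factors such as tristetraprolin are known to bind. Stretches of 30 bases from that region are shown, since the number of copies differs between these 4 genes. They come from GENCODE release 29, in DNA letters, with each TATTTAT in capitals, overlapping copies included. This motif too was chosen after the values had been seen.
CXCL1: aagtcttcTATTTATTTATTTATtcattag
CXCL2: cttcTATTTATTTATTTATTTATTTATttg
CXCL3: gttctactTATTTATgTATTTATttttgaa
CXCL8: aaccTATTTATTATTTATgTATTTATttaa
The whole 3′ untranslated region held TATTTAT 8 times in CXCL2, 4 times in CXCL1 and CXCL8 and 3 times in CXCL3, in lengths of 721, 706, 1252 and 673 bases for CXCL2, CXCL1, CXCL8 and CXCL3. It was found 2 times each in ICAM1, NFKBIA and TNFAIP3, once in CCL20 and 0 times in CXCL16. Of 11120 tested genes with such a region, 31.6% held it at least once and 5.58% at least 3 times. Of the 1366 other tested genes whose region was of like length to that of CXCL2, 0.0732% held at least as many copies. Of 6 genes listed for proteins that bind AU-rich letters, not all of them decay factors, 2 were higher and 0 lower as deposited. Among all tested genes 42.2% were higher and 17.6% lower. After TMM scaling 2 of the 6 were higher and 3 lower, ELAVL1 among the lower, against 19.3% and 24.5% of all tested genes. ZFP36, which encodes tristetraprolin, rose to 23.9 ± 2.31 FPKM in siOXTR against 16.2 ± 1.33 FPKM in siControl (SD, n = 3 each). Its log2 fold change was 0.53 as deposited and 0.41 after TMM scaling (adjusted p = 0.000127 and 0.000867, limma). Its relative ZFP36L2 rose by 0.35 (adjusted p = 0.000315, limma), and by 0.23 after TMM scaling (adjusted p = 0.00643). Whether either bears on the chemokine levels was not tested.

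CXCL1, CXCL2 and CXCL3 are close copies, and reads could be shared between them. In the longest coding transcript of each, 5.73% of the 50-base windows of CXCL1, 9.24% of those of CXCL2 and 5.26% of those of CXCL3 occurred exactly in another of the 9 genes. Read length and the handling of shared reads are unknown here, so single values of these 3 genes are uncertain. The shares cover exact matches among the 9 genes alone and do not give the size of that uncertainty. None of the windows of the other 6 genes were shared in this way.

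**Figure D2:**
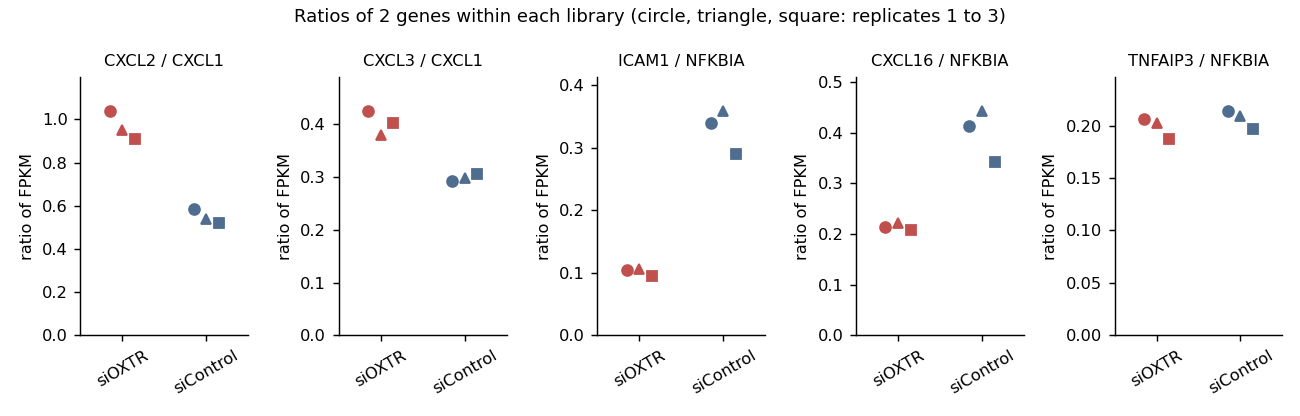
Ratio of the FPKM of 2 genes in each library (vertical axes, each from 0) for siOXTR (red, left) and siControl (blue, right), with symbols for replicate numbers. CXCL2 and CXCL3 relative to CXCL1 are higher in every siOXTR library, ICAM1 and CXCL16 relative to NFKBIA are lower in every siOXTR library, and the groups overlap for TNFAIP3 relative to NFKBIA.

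CCL20 (chromosome 2, 227805739 to 227817564, plus strand) encodes the ligand of CCR6, which guides dendritic cells and lymphocytes to mucosal epithelium. Its promoter is shown as the one among the secreted chemokines without GGAAATTCC. Capitals mark a match to a kappaB consensus, beginning 79 bases before the start (chr2:227813732-227813841, plus strand, RefSeq, GRCh38.p14). That consensus was GGGRNWYYCC, read on either strand, with R for A or G, W for A or T, Y for C or T and N for any base. It does not take in every GGAAATTCC.
CCL20: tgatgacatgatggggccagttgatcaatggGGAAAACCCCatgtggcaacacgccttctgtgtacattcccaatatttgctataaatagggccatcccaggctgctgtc
CCL20 was low, at 3.05, 2.03 and 2.38 FPKM in siOXTR and at 2.49, 2.22 and 2.92 FPKM in siControl. The groups overlapped fully. On the log2 scale CCL20 differed by -0.029 (95% interval -0.26 to 0.21, adjusted p = 0.828, limma), and its sign turned without siOXTR replicate 2 (0.0671) and without siControl replicate 3 (0.0463). At such a level the scale of log2(FPKM + 1) understates any change.

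CXCL16 (chromosome 17, 4733526 to 4739922, minus strand) encodes a chemokine tethered to the cell surface, which also takes up oxidised lipoprotein and is released by the proteases ADAM10 and ADAM17. It was at 44.91, 44.73 and 44.28 FPKM in siOXTR and at 70.61, 73.70 and 61.43 FPKM in siControl. The siOXTR libraries nearly coincided, with a coefficient of variation of 0.727%, and lay below each siControl library. CXCL16 had a log2 fold change of -0.60 as deposited and -0.73 after TMM scaling (SE 0.065 each, adjusted p = 9.99e-06 and 1.03e-06, limma). A fall of this size or more was seen in 6.72% of tested genes.

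Both sheddase genes fell as well. ADAM10 was at 36.5 ± 0.731 FPKM in siOXTR and 97.8 ± 5.90 FPKM in siControl, and ADAM17 at 11.0 ± 0.378 FPKM in siOXTR and 19.8 ± 1.36 FPKM in siControl (SD, n = 3 each). Their log2 fold changes were -1.40 (adjusted p = 1.50e-09, limma) and -0.79 (adjusted p = 6.41e-07, limma). The files hold RNA levels and say nothing of how much CXCL16 was on or off the cell surface.

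ICAM1 (chromosome 19, 10270835 to 10286615, plus strand) encodes the surface receptor that leukocyte integrins grip, and it fell most of the 9 genes. The stretch of its promoter with the NF-kB motif is shown to set it beside those of the chemokines, with GGAAATTCC in capitals, beginning 186 bases before the start. The window is chr19:10270929-10271038 (plus strand, RefSeq, GRCh38.p14).
ICAM1: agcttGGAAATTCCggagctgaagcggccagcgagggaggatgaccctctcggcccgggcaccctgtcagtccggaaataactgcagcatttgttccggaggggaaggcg
ICAM1 was at 21.92, 21.39 and 20.39 FPKM in siOXTR and at 57.83, 59.71 and 52.13 FPKM in siControl. The gap between the groups was much wider than the spread within either. On the log2 scale ICAM1 changed by -1.37 (SE 0.061, adjusted p = 3.55e-09, limma) and -1.50 after TMM scaling (adjusted p = 7.25e-10, limma). In all, 0.727% of tested genes fell by as much or more.

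The 5 genes whose library pattern lay nearest to that of ICAM1 were NEO1, PLBD2, PLOD3, SULF2 and ST14. Likeness was the Euclidean distance of centred log2(FPKM + 1) values over the 6 libraries, among 9017 tested genes averaging 5 FPKM or more, and the distances ran from 0.0978 for NEO1 to 0.111 for ST14. NEO1, a netrin and repulsive guidance receptor gene, was at 3.15 ± 0.285 FPKM in siOXTR and 9.72 ± 0.710 FPKM in siControl (SD, n = 3 each). ST14, which encodes the membrane protease matriptase, was at 88.7 ± 4.44 FPKM in siOXTR and 227 ± 12.1 FPKM in siControl. The measure includes the size of the group difference.

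NFKBIA (chromosome 14, 35401511 to 35404749, minus strand) encodes I-kappa-B alpha, the inhibitor that NF-kB induces to end its own activity. TNFAIP3 (chromosome 6, 137867188 to 137883312, plus strand) encodes a ubiquitin-editing enzyme that shuts down signalling upstream of the kinase complex. Their promoters are shown as those of the feedback genes. In NFKBIA the capitals mark GGAAATTCC, beginning 81 bases before the start (chr14:35404750-35404859, minus strand). TNFAIP3 lacks that exact motif in the 250 bases searched, and the capitals mark a pair of matches to the kappaB consensus given for CCL20, beginning 67 and 55 bases before the start (chr6:137867149-137867258, plus strand). That consensus was found on either strand in 5.21% of all 250-base windows and in 6 of these 8 genes, overlapping GGAAATTCC in CXCL1, CXCL2, CXCL3 and NFKBIA. CXCL8 and ICAM1 held GGAAATTCC without a match to the consensus.
NFKBIA: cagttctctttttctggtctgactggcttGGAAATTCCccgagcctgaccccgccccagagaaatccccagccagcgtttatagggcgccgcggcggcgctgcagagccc
TNFAIP3: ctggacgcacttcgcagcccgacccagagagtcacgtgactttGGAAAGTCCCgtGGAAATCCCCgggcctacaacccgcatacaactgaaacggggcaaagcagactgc

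NFKBIA was the most abundant of the 9 genes, at 209.45, 201.60 and 213.82 FPKM in siOXTR and 170.61, 166.47 and 179.46 FPKM in siControl. Each siOXTR library lay above each siControl library. The log2 fold change was 0.27 (SE 0.053, adjusted p = 0.000955, limma), a modest rise, since 76.8% of tested genes had a lower one. After TMM scaling it was 0.15 and stayed just past the threshold (adjusted p = 0.0464, limma).

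TNFAIP3 was at 43.05, 40.77 and 40.09 FPKM in siOXTR and at 36.56, 34.84 and 35.33 FPKM in siControl. The groups did not overlap. The log2 fold change was 0.21 (SE 0.053, adjusted p = 0.00478, limma), not far above the middle of all genes, of which 65.2% had a lower one. After TMM scaling it was 0.084, short of the threshold (adjusted p = 0.212, limma), and with equal FPKM totals 0.13 (adjusted p = 0.0972, limma). The level relative to NFKBIA was 0.198 ± 0.00961 in siOXTR and 0.207 ± 0.00897 in siControl (SD, n = 3 each), and these overlapped (two-sided exact permutation p = 0.4).

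Within each library, ICAM1 and CXCL16 can also be read against the feedback gene NFKBIA. ICAM1 stood at 0.105, 0.106 and 0.0954 times NFKBIA in siOXTR and at 0.339, 0.359 and 0.290 times NFKBIA in siControl. CXCL16 stood at 0.214, 0.222 and 0.207 times NFKBIA in siOXTR and at 0.414, 0.443 and 0.342 times NFKBIA in siControl. Neither ratio overlapped between groups (two-sided exact permutation p = 0.1 each, the smallest possible, and 0.125 after Benjamini-Hochberg adjustment over 5 ratios). That outcome was fixed beforehand, since ICAM1 and CXCL16 were lower and NFKBIA higher in every siOXTR library. These 2 ratios therefore give sizes and add no test.

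**Figure D3:**
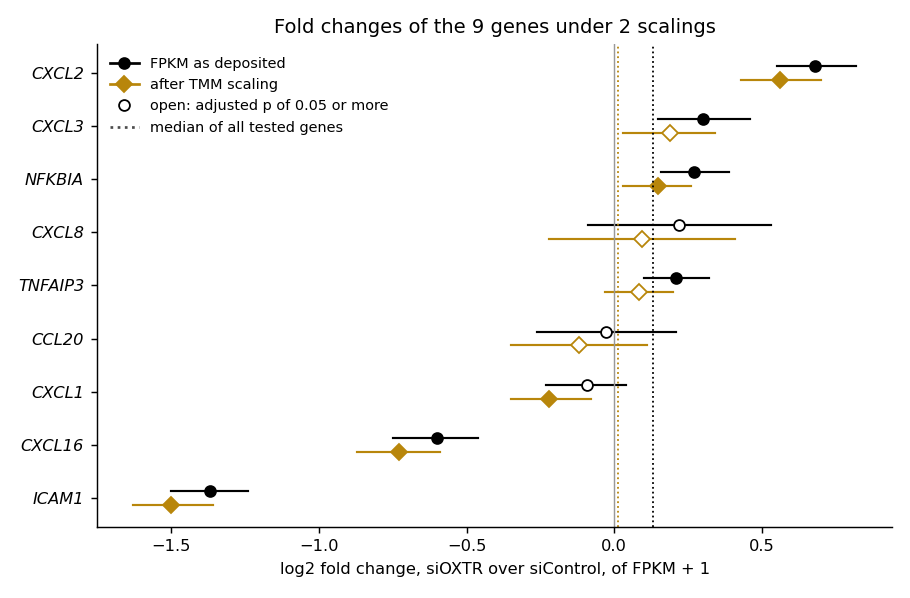
Log2 fold change, siOXTR over siControl, of FPKM + 1 (horizontal axis) for the 9 genes, as deposited (black) and after TMM scaling (gold), with 95% intervals, open symbols where the adjusted p was 0.05 or more, and dotted lines at the median of all tested genes. ICAM1 (-1.37) and CXCL16 (-0.60) lie left of 0 and CXCL2 (0.68) right of it under both scalings, and CXCL3 and TNFAIP3 lose their call after TMM scaling.

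The order of levels changed mainly through ICAM1. In siOXTR the order from the highest mean was NFKBIA, CXCL16, TNFAIP3, CXCL8, CXCL1, CXCL2, ICAM1, CXCL3 and CCL20, and the ranges of CXCL1 and CXCL2 overlapped. In siControl it was NFKBIA, CXCL16, ICAM1, TNFAIP3, CXCL1, CXCL8, CXCL2, CXCL3 and CCL20, and the ranges of CXCL1 and CXCL8 overlapped. No other neighbours in either order overlapped.

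**Figure D4:**
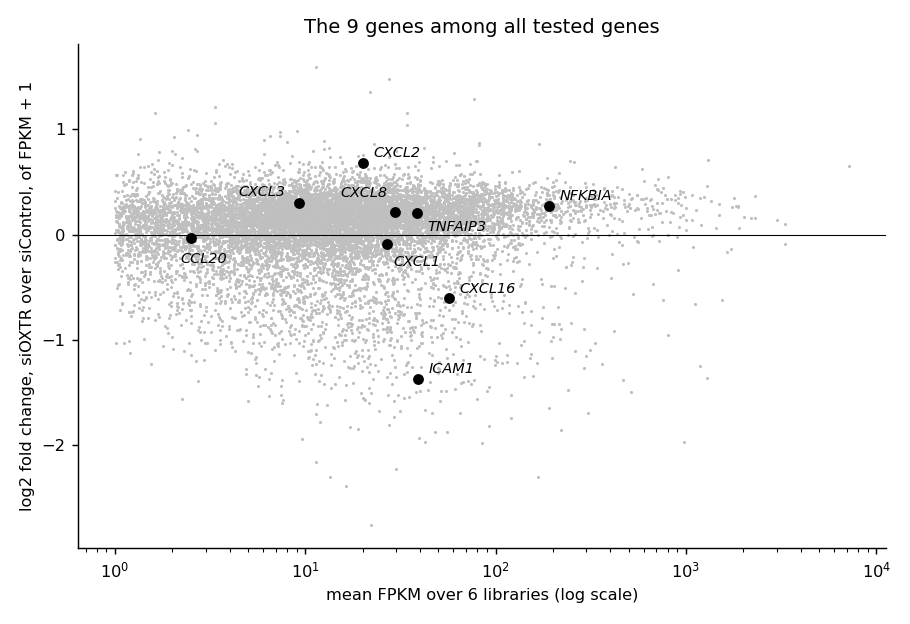
Mean FPKM over the 6 libraries (horizontal axis, log scale) and log2 fold change, siOXTR over siControl, of FPKM + 1 (vertical axis) for the 11550 tested genes (grey), with the 9 genes in black. ICAM1 lies near the lower edge of the cloud at -1.37, CXCL2 near its upper edge at 0.68, and NFKBIA, TNFAIP3, CXCL3 and CXCL8 lie within its dense part.

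The machinery that carries signals to these genes was then described from lists by role. Receptors upstream of NF-kB were mostly lower, with 8 of 11 tested genes lower and 1 higher as deposited. Among all tested genes 17.6% were lower and 42.2% higher. After TMM scaling 9 of the 11 were lower and 0 higher, against 24.5% and 19.3% of all tested genes. The median log2 fold change of the receptors as deposited was -0.51, against 0.13 for all tested genes. IL17RA, an interleukin-17 receptor gene, was at 1.58, 1.41 and 1.53 FPKM in siOXTR and at 3.26, 3.95 and 3.29 FPKM in siControl. The tumour necrosis factor receptor genes TNFRSF1B and TNFRSF1A had log2 fold changes of -0.83 and -0.49 (adjusted p = 9.54e-06 and 4.73e-05, limma). TNFRSF21, a death receptor gene, and IL1RAP, the interleukin-1 co-receptor gene, had -0.84 and -0.60 (adjusted p = 4.26e-08 and 8.51e-06, limma). TLR4 was listed at 0 in each library, and IL1R1 was at 0.26 FPKM or less.

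Among adaptors and ubiquitin ligases 9 of 18 tested genes were higher and 1 lower, with a median log2 fold change of 0.16, against 42.2% higher, 17.6% lower and a median of 0.13 for all tested genes. After TMM scaling 1 was higher and 4 lower, against 19.3% and 24.5% of all tested genes. The linear ubiquitin ligase genes RBCK1 and RNF31 rose by 0.30 each, RIPK1 by 0.29 and TRAF6 by 0.26 (adjusted p = 0.000556, 0.00342, 0.00491 and 0.00663, limma), and of these RBCK1 alone kept its call after TMM scaling (0.18, adjusted p = 0.0207). BIRC3, an NF-kB-induced ubiquitin ligase gene, was the 1 that fell, to 82.5 ± 2.56 FPKM in siOXTR against 97.9 ± 6.95 FPKM in siControl (SD, n = 3 each).

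In the I-kappa-B kinase list 4 of 11 tested genes were higher and 0 lower, with a median log2 fold change of 0.14, and after TMM scaling 2 and 0. The shares called higher were near those of all tested genes (42.2% as deposited and 19.3% after TMM scaling). Called lower were 17.6% and 24.5% of all tested genes, and their median log2 fold change as deposited was 0.13. IKBKB, which encodes a catalytic subunit, was at 8.65 ± 0.382 FPKM in siOXTR and 6.21 ± 0.107 FPKM in siControl (SD, n = 3 each), and IKBKG, the regulatory subunit gene, at 16.5 ± 1.33 FPKM in siOXTR and 12.6 ± 0.409 FPKM in siControl. IKBKG has a pseudogene copy, and its value is uncertain for that reason. Both calls held after TMM scaling, at 0.31 and 0.23 on the log2 scale (adjusted p = 0.00143 and 0.0103, limma). TBK1, a related kinase gene, rose by 0.27 and MAP3K7, an upstream kinase gene, by 0.16 as deposited (adjusted p = 0.00393 and 0.0294, limma), and neither call held after TMM scaling. CHUK, the other catalytic subunit gene, had a log2 fold change of 0.13 (adjusted p = 0.0602, limma).

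None of the 5 NF-kB subunit genes passed the test in limma, as deposited or after TMM scaling, where 59.8% and 43.8% of all tested genes were called. Of the 5, 0 and 0 had an unadjusted p under 0.05, against 7432 and 5941 of the 11550 tested genes. The groups did not overlap for NFKB2 and REL, both higher in siOXTR as deposited, against 64.4% of all tested genes. Their log2 fold changes ran from 0.031 for RELA to 0.15 for RELB as deposited (adjusted p = 0.730 and 0.0795, limma). RELA was at 47.8 ± 2.00 FPKM in siOXTR and 46.9 ± 5.13 FPKM in siControl, and NFKB1 at 14.3 ± 0.816 FPKM in siOXTR and 13.5 ± 0.350 FPKM in siControl (SD, n = 3 each). The files do not report where these proteins were in the cell.

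Of 15 other tested NF-kB inhibitor genes, 5 were higher and 2 lower as deposited, with a median log2 fold change of 0.15, and 1 and 2 after TMM scaling. Among all tested genes 42.2% were higher and 17.6% lower as deposited, and 19.3% and 24.5% after TMM scaling. The 1 that was higher in both was NFKBIZ, a nuclear I-kappa-B gene, at 8.88, 8.87 and 10.09 FPKM in siOXTR and 6.61, 5.90 and 6.27 FPKM in siControl. Its log2 fold change was 0.50 (adjusted p = 8.71e-05, limma). The deubiquitinase genes CYLD, OTUD7B and OTULIN rose by 0.24, 0.24 and 0.20 as deposited (adjusted p = 0.0225, 0.0134 and 0.0234, limma), and lost these calls after TMM scaling. TNIP1, whose product works with that of TNFAIP3, was at 75.0 ± 1.65 FPKM in siOXTR and 82.2 ± 3.41 FPKM in siControl (SD, n = 3 each; log2 fold change -0.13, adjusted p = 0.0476, limma).

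Of 24 other tested NF-kB target genes, 6 were higher and 11 lower as deposited, against 42.2% and 17.6% of all tested genes. Their median log2 fold change was -0.087, against 0.13 for all tested genes. After TMM scaling 1 of these targets was higher and 13 lower, against 19.3% and 24.5%. The complement gene C3 fell furthest, with a log2 fold change of -2.31, followed by the dendritic cell antigen gene CD83 (-0.64), the urokinase receptor gene PLAUR (-0.63) and the gelatinase gene MMP9 (-0.52), each with an adjusted p of 0.000586 or less (limma). MMP9 averaged 0.857 FPKM in siOXTR and 1.66 FPKM in siControl, so it passed the filter on low values only through siControl, and its test is conditioned on that. IRF1, an interferon response factor gene, rose to 77.6 ± 2.97 FPKM in siOXTR against 61.4 ± 3.47 FPKM in siControl (SD, n = 3 each) and was the 1 higher gene after TMM scaling. IL6 was at 23.7 ± 0.157 FPKM in siOXTR and 21.6 ± 1.35 FPKM in siControl (SD, n = 3 each), with a log2 fold change of 0.13 (adjusted p = 0.0738, limma).

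Beyond the 6 chemokine genes above, 25 more with a CXCL, CCL, XCL or CX3CL symbol were in the files, a rule that leaves out PPBP. Of these, 8 were tested, and 2 were higher and 1 lower as deposited, against 42.2% and 17.6% of all tested genes. After TMM scaling 1 of the 8 was higher and 3 were lower, against 19.3% and 24.5%. The most abundant, CCL5, a T cell attractant gene, was at 96.8 ± 3.93 FPKM in siOXTR and 93.8 ± 4.17 FPKM in siControl (SD, n = 3 each), and did not pass the test (adjusted p = 0.488, limma). CXCL11, an interferon-induced chemokine gene, was at 3.00, 4.00 and 3.23 FPKM in siOXTR and at 5.23, 4.96 and 5.56 FPKM in siControl, with no overlap (adjusted p = 0.000381, limma). XCL1, which has the close copy XCL2 and is uncertain for that reason, was at 4.74 ± 0.121 FPKM in siOXTR and 3.34 ± 0.185 FPKM in siControl. CCL24 was at 1.58 ± 0.524 FPKM in siOXTR and 1.05 ± 0.116 FPKM in siControl, and its call was lost after TMM scaling. The receptors and counter-receptors of the 9 genes' products (CXCR2, CXCR6, CCR6, ITGAL, ITGAM and ITGB2) were each under 2 FPKM in every library.

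**Figure D5:**
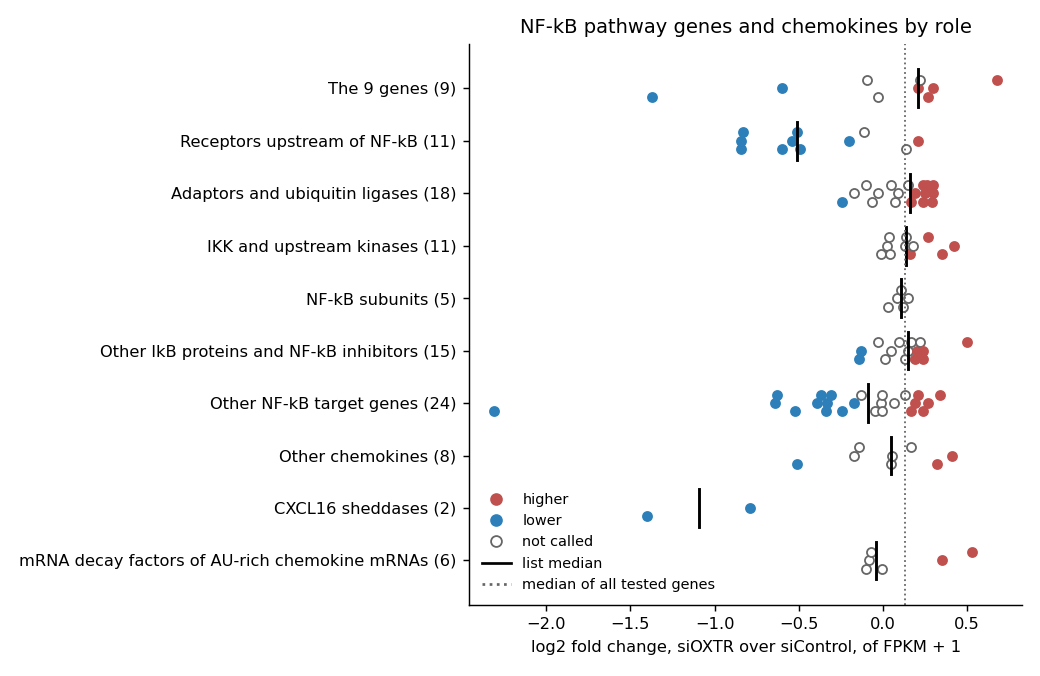
Log2 fold change, siOXTR over siControl, of FPKM + 1 as deposited (horizontal axis) for tested genes of each list (rows, with the number tested), red where higher, blue where lower and open where not called, with a black bar at the list's median and a dotted line at the median of all tested genes (0.13). Receptors upstream of NF-kB sit to the left at a median of -0.51, and the 5 NF-kB subunit genes are all open. The row named for mRNA decay factors holds the 6 genes for proteins that bind AU-rich letters.

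Across all these lists 29 of 101 tested genes were higher and 25 lower as deposited, with a median log2 fold change of 0.046, while TMM scaling left 8 higher and 36 lower, with a median of -0.080. Over all tested genes 42.2% were higher and 17.6% lower as deposited, with a median of 0.13. After TMM scaling these were 19.3% and 24.5%, with a median of 0.013. Among the 45 other tested genes with GGAAATTCC in a promoter window, 13 were higher (28.9%) and 7 lower (15.6%), against 42.2% and 17.6% of all tested genes. The shares after TMM scaling were 13.3% higher and 20.0% lower, against 19.3% and 24.5%.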

How the data were processed

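Total RNA gave 3 siOXTR and 3 siControl libraries, which the labels' protocols describe as BGISEQ-500 preparations. The authors deposited FPKM values, per the file headers, rounded to 2 decimals. GRCh38.p13 is the build named in the submitters' processing notes. Aligner, quantifier, annotation and strand setting were not given in the sources used here. Because FPKM is relative to library size, a fall in abundant genes raises the values of others. Low values were searched for whole-fragment steps, and the best coherence was 0.207 to 0.281 of a possible 1, so no depth was recovered and precision rests on the 3 libraries of each group.

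The test was limma 3.58.1 (R 4.3.3) on log2(FPKM + 1) for genes averaging 1 FPKM or more (group as the only term, trended and robust prior variance, two-sided, Benjamini-Hochberg adjustment over 11550 genes, threshold 0.05). The fit was tested on simulated data. Fold changes on this scale understate those of low genes, and a value written "-fold" divides the group means of FPKM. TMM factors were computed on FPKM, trimming 30% of M and 5% of A values. Libraries of 1 group correlated at 0.995 to 0.998 and no pair shared more than 0.606% of values, so none was a copy of another. Each was counted as 1 replicate, which does not show that the cultures were separate. The genes and lists were chosen with earlier results of these data known. Up to 4 called genes with the largest change were named per list. TNFRSF1A, BIRC3, CHUK, RELA, RELB, NFKB1, TNIP1, IRF1, IL6, CCL5, TLR4, IL1R1, CDH1 and the 5 ratios were chosen after their values were seen. The sequence motifs, with the kappaB consensus among them, were likewise chosen after values were seen.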

Additional observations from a re-analysis of the deposited data

How the results depend on the processing

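The alternatives were a pseudocount of 0.1, no filter, a mean of at least 5 FPKM (which leaves out CCL20), TMM scaling, equal FPKM totals, a constant prior variance, a replicate block and each library left out. ICAM1, CXCL16, CXCL2 and NFKBIA kept their direction and call in all of them. Under TMM scaling the counts called higher were 2 of the 9 genes, 8 pathway genes and 2228 of all genes, and with equal FPKM totals 13 pathway genes and 2942 of all genes, against 4, 29 and 4869 as deposited. The log2 fold change of CXCL1 passed the threshold at -0.22 with TMM scaling and at -0.18 with equal totals. That of CXCL3 missed it at 0.19 with TMM scaling, and that of TNFAIP3 at 0.0842 with TMM scaling and 0.13 with equal totals. These scalings lower every siOXTR value relative to siControl by construction. With libraries left out, CXCL8 ranged from 0.0747 to 0.38, passing the threshold without siControl replicate 3 alone, and CCL20 from -0.14 to 0.0671, with a reversed sign without siOXTR replicate 2 (0.0671) and without siControl replicate 3 (0.0463). ICAM1 ranged from -1.43 to -1.33, and the genes called higher among the 9 from 4 to 5. The labels do not say that replicate numbers pair the libraries, and the main test did not pair them. Same-numbered libraries deviated from their group means together with r of 0.107, 0.00421 and 0.16. With so few libraries these values cannot settle whether the numbers mark pairs. With the replicate number as a block, 5100 of all genes were higher and 2105 lower, against 4869 and 2036 without it, ICAM1 stayed at -1.37, and no call among the 9 genes changed. The other log2 ranges with single libraries left out were -0.13 to -0.0313 for CXCL1, 0.63 to 0.71 for CXCL2, 0.26 to 0.37 for CXCL3, -0.68 to -0.55 for CXCL16, 0.25 to 0.30 for NFKBIA and 0.18 to 0.23 for TNFAIP3. Depth is unknown, so counting error could not be given.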
